A study of Homo sapiens with 2 samples.

Results

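The genes described here encode the extracellular side of WNT signalling: 19 WNT ligands, 10 frizzled receptors (FZD), 4 R-spondins (RSPO), 4 dickkopf proteins (DKK) and 5 secreted frizzled-related proteins (SFRP and FRZB). They were taken by gene number from the expression tables, and the 42 genes compare with 18518 gene numbers listed in either table. Of the 42 genes, 37 were listed in at least 1 table and 27 reached 10 counts in at least 1 library, the minimum for a comparison. H1 is an established line of human embryonic stem cells. RNA was taken from wild-type H1 and from a MEIS1-/- derivative, labelled as lacking the gene of the homeodomain transcription factor MEIS1. Both were sampled on day 3 of a differentiation towards blood. The medium contained activin A at 40 ng/ml with BMP4 at 50 ng/ml during the first 2 days, and VEGF at 40 ng/ml with bFGF at 50 ng/ml during the next 2 days, so sampling fell within the later step. Each genotype had 1 library, the number of clones behind the MEIS1-/- cells was not given, and no test between genotypes was possible. Differences therefore describe these libraries.

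WNT proteins are lipid-modified secreted signals that bind frizzled receptors together with a co-receptor. In the canonical branch this stabilises beta-catenin, which enters the nucleus and acts with TCF and LEF factors, and other branches steer cell polarity and movement. R-spondins keep frizzleds at the cell surface by holding off the ubiquitin ligases that remove them. DKK proteins block the co-receptors, and secreted frizzled-related proteins bind WNTs outside the cell. WNT signalling is known to drive formation of the primitive streak and mesoderm, from which blood and endothelium arise.

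The libraries held 5202847 (wild type) and 5296397 (MEIS1-/- labelled) counts. Ratios are the MEIS1-/- labelled library over wild type, each with an exact 95% interval that covers counting error only, and a gene is called higher or lower where that interval excludes 1. Pairs of values are given with wild type first. MEIS1 itself was at 89 and 68 counts, and the interval of its ratio included 1 (0.759, 0.543 to 1.05). The deleted part of the gene was not given, so this level does not check the labels. For the counts of markers below, 15.4% of all genes with at least 10 counts in 1 library were higher and 14.7% lower. Where either library reached 50 counts, the interval excluded 1 for 34.1% of all genes. Primitive streak and nascent mesoderm markers (TBXT, MIXL1, EOMES and 4 others) had a summed level of 128 FPKM in wild type and 34.0 in the MEIS1-/- labelled library, with 5 of 5 compared markers lower. FPKM is the deposited count per kilobase of gene length, scaled for sequencing depth. The 8 markers of endothelium and blood progenitors had 194 and 284 FPKM and all were higher. Pluripotency markers had 682 and 553 FPKM, with 4 of 6 lower, and SOX2 was near 0 with 4 and 9 counts. Definitive endoderm markers had 85.7 and 64.5 FPKM, with 1 of 6 lower and 5 whose interval included 1. Neural ectoderm markers had 140 and 123 FPKM, mostly NES, with 1 of 3 lower, and SOX1 was listed in neither table. Fibroblast and smooth muscle markers had 412 and 545 FPKM, with 3 of 5 higher and 1 lower; COL3A1 had 346 and 2498 counts and DCN was listed in neither table. These marker levels differed between the same 2 libraries as the WNT genes described next, and their part in those differences was not tested. In RNA from a whole culture, fewer cells of a type and less RNA per cell cannot be told apart.

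Summed levels of ligands, frizzleds and SFRP genes were lower in the MEIS1-/- labelled library, and those of R-spondins were higher. Most of the frizzled difference lay in FZD7 (35.4 and 18.9 FPKM). SFRP2 (80.5 and 32.0 FPKM) differed by more than the sum of its class. Summed over each class, the ligands had 86.3 FPKM in wild type and 53.2 in the MEIS1-/- labelled library, and the frizzleds 91.7 and 72.4. The R-spondins had 33.6 and 93.7 FPKM. The SFRP class had 124 and 81.0 FPKM, and the DKK class 54.4 and 53.4. The R-spondins thus went from the lowest to the highest of the 5 class sums. Summed counts gave ratios of 0.619 for the ligands (0.573 to 0.669), 0.821 for the frizzleds (0.774 to 0.870), and 2.83 for the R-spondins (2.55 to 3.14). The summed counts of the SFRP class were 1.24-fold lower (1.16 to 1.33), less than the summed FPKM, and those of the DKK class, 698 and 706, gave an interval that included 1.

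**Figure D1:**
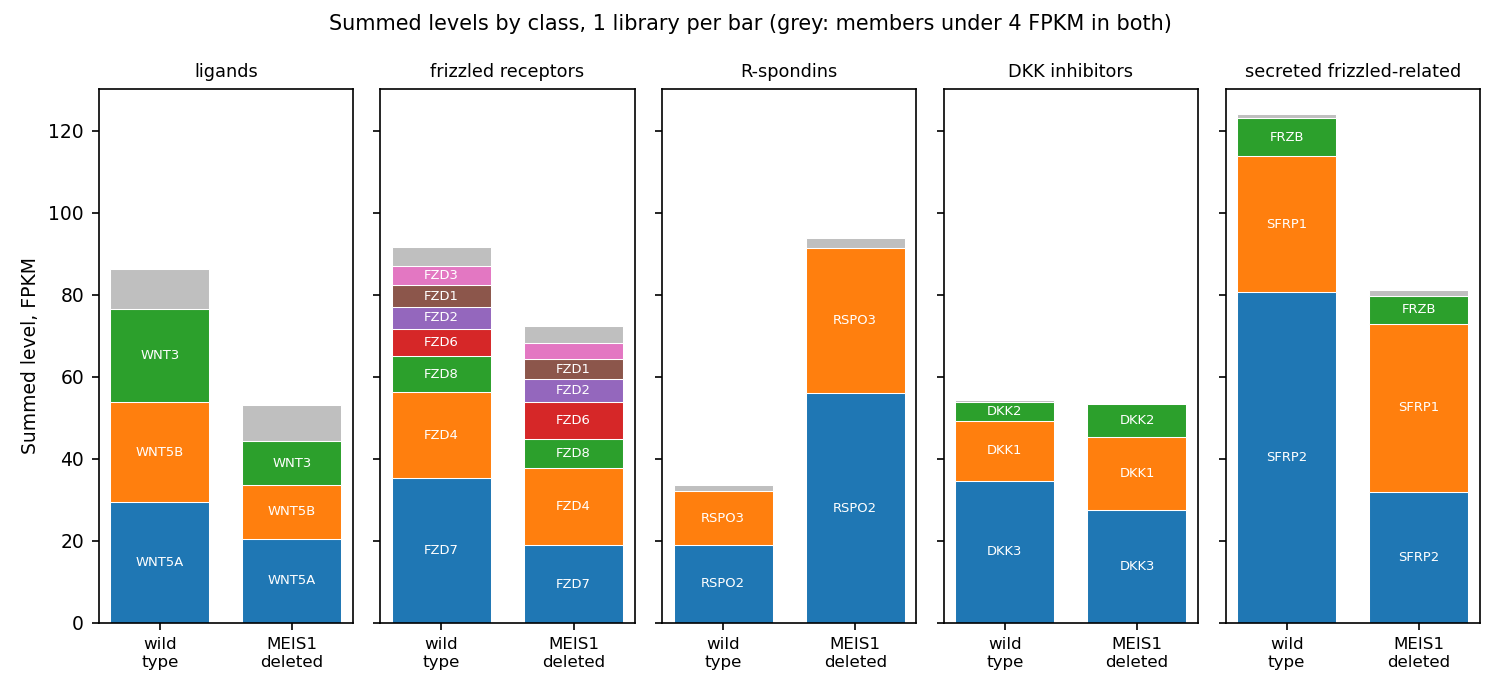
Summed level in FPKM of each class in the wild-type library and the MEIS1-/- labelled library, 1 library per bar, with a coloured block for each gene at 4 FPKM or more in either library and the other genes in grey. The R-spondin bars stand at 33.6 and 93.7 FPKM and the ligand bars at 86.3 and 53.2, and SFRP2 is the block that differs most in the secreted frizzled-related class.

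Single genes were set against all 14381 genes compared. RSPO2 and RSPO3 were at least 2-fold higher with an interval above 1, that is 2 of 27 genes (7.41%), where 2.90% of all genes compared met both conditions. WNT2, WNT3, WNT9B and SFRP2 were at least 2-fold lower with an interval below 1, which is 4 of 27 (14.8%) against 2.95%. By the interval alone, 5 of the 27 were higher (18.5%, against 15.4% of all genes) and 9 lower (33.3%, against 14.7%). The share with an interval above 1 was thus near the background. Depth matters here, since intervals narrow as counts grow. Where either library reached 50 counts, the interval excluded 1 for 12 of 19 WNT genes and for 34.1% of all genes, and 4 of 19 and 3.06% were also at least 2-fold apart. Between 10 and 49 counts, 2 of 8 WNT genes (WNT2 and WNT9B) and 14.5% of all genes were 2-fold apart. The median log2 ratio of the 27 genes was -0.13, beside 0.0032 over all genes compared. By class it was -0.72 for 8 ligands, -0.15 for 9 frizzleds, 1.45 for 3 R-spondins, 0.29 for 3 DKK genes and -0.079 for 4 SFRP genes. The median absolute log2 ratio of the 27 genes was 0.46, beside 0.22.

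**Figure D2:**
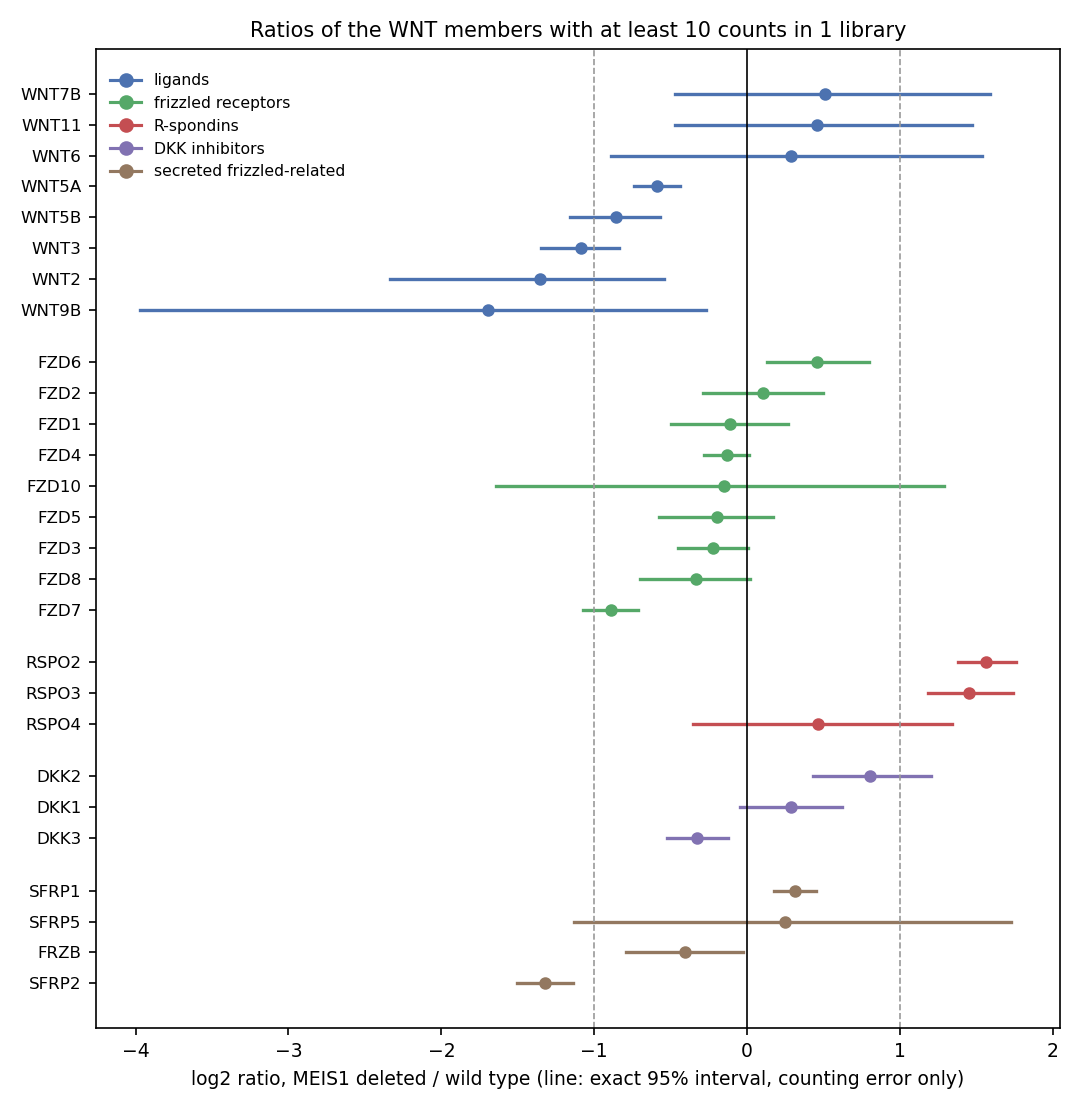
Log2 ratio of the MEIS1-/- labelled library over wild type for the 27 genes with at least 10 counts in 1 library, by class, as points with exact 95% counting intervals as lines; dashed lines mark 2-fold. RSPO2 and RSPO3 lie beyond the upper dashed line, and WNT3, WNT2, WNT9B and SFRP2 beyond the lower one.

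Stretches of promoter are shown for the genes with at least 50 counts that were at least 2-fold apart, because MEIS and TCF/LEF factors bind short known motifs that can be looked up there. Each is 150 bases long, begins 250 bases before the RefSeq start of the gene (GRCh38.p14) and reads 5′ to 3′ on the strand of the gene, in lower case with motif matches in capitals. The table had no entry for RSPO2. RSPO3 is at chr6:127118421-127118570 on the plus strand, SFRP2 at chr4:153789184-153789333 on the minus strand and WNT3 at chr17:46818793-46818942 on the minus strand. GC content was 60.0% in the RSPO3 stretch, 60.7% in that of SFRP2 and 69.3% in that of WNT3.

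RSPO3: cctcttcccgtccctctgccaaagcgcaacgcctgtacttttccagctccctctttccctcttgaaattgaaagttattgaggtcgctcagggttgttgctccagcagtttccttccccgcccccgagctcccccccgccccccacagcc

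SFRP2: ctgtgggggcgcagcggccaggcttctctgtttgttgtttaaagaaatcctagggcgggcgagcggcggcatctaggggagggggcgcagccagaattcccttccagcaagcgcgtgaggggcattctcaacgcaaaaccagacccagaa

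WNT3: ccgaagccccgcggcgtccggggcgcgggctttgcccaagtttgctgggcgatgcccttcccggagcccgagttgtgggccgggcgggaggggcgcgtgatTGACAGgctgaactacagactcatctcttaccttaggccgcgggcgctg

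The MEIS core motif TGACAG, searched on both strands, was found in the WNT3 stretch with its first base 149 bases before the start. The table held 32 promoters of 29 WNT genes, since WNT2B, WNT5A and WNT5B each had several starts. Of these 32 promoters, 2 held the motif in this window, those of WNT3 and WNT16, against 7.96% of all 35116 promoters. WNT16 had 4 and 7 counts. The TCF/LEF motif ATCAAAG was found in 0 of the 32 promoters and in 1.42% of all promoters. A match is a string of letters and not a binding site, and its absence from this window says nothing of the factor.

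Among the ligands, WNT5A, WNT5B and WNT3 were the most abundant per unit of length in both libraries and all 3 were lower in the MEIS1-/- labelled library. WNT3, a canonical ligand needed for the primitive streak in mouse embryos, had 400 counts (22.65 FPKM) in wild type and 190 counts (10.57 FPKM) in the MEIS1-/- labelled library. It was 2.12-fold lower (1.79 to 2.54). WNT5B, a ligand that mostly acts outside the beta-catenin branch, had 275 counts (24.3 FPKM) and 153 counts (13.3 FPKM), 1.81-fold lower (1.49 to 2.23). WNT5A, its close relative and a guide of cell movement, had 932 counts (29.5 FPKM) and 626 counts (20.4 FPKM), a ratio of 0.665, with an interval from 1.36-fold to 1.67-fold lower. WNT3 made up 26.2% of the summed ligand level in wild type and 19.9% in the MEIS1-/- labelled library, whereas the share of WNT5A was 34.2% and 38.3%. Both the canonical ligand WNT3 and the WNT5 pair thus contributed to the lower sum.

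Of the 5 less abundant ligands compared, WNT2 and WNT9B were lower and 3 had intervals that included 1. WNT2 had 42 counts (2.77 FPKM) in wild type and 16 counts (1.06 FPKM) in the MEIS1-/- labelled library, 2.56-fold lower (1.46 to 5.05). WNT9B, which lies next to WNT3 on chromosome 17, had 15 counts (1.99 FPKM) and 4 counts (0.52 FPKM), 3.23-fold lower (1.21 to 15.7). Both rest on few reads, and they are the genes that leave the count of 4 lower genes when at least 50 counts are required. WNT11, a ligand linked to heart and mesoderm formation, had 17 and 24 counts (ratio 1.37, 0.720 to 2.77). WNT7B had 15 and 22 counts (1.42, 0.720 to 3.01) and WNT6 12 and 15 (1.22, 0.541 to 2.89). The intervals of these 3 ratios included 1, so at this depth no difference was detectable.

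The other 11 ligands were at or near the limit of detection. WNT2B had 3 and 5 counts, WNT7A 2 and 4, WNT16 4 and 7, WNT8A 1 and 2, and WNT9A 2 in each library. WNT4 had an expected count of 0.11 in wild type and 6 in the MEIS1-/- labelled library. WNT3A, the ligand most often used to activate the canonical branch in culture, had 1 count in each library. WNT1, WNT8B, WNT10A and WNT10B were listed in neither table, which at this depth allows up to 3 counts each. WNT1 and WNT10B are next to each other on chromosome 12, as are WNT6 and WNT10A on chromosome 2. Thus 3 pairs of ligand genes are neighbours. WNT3 and WNT9B both had an interval below 1, that of WNT9B on only 15 and 4 counts. The other pairs could not be compared in this way, because WNT1, WNT10B and WNT10A were listed in neither table.

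**Figure D3:**
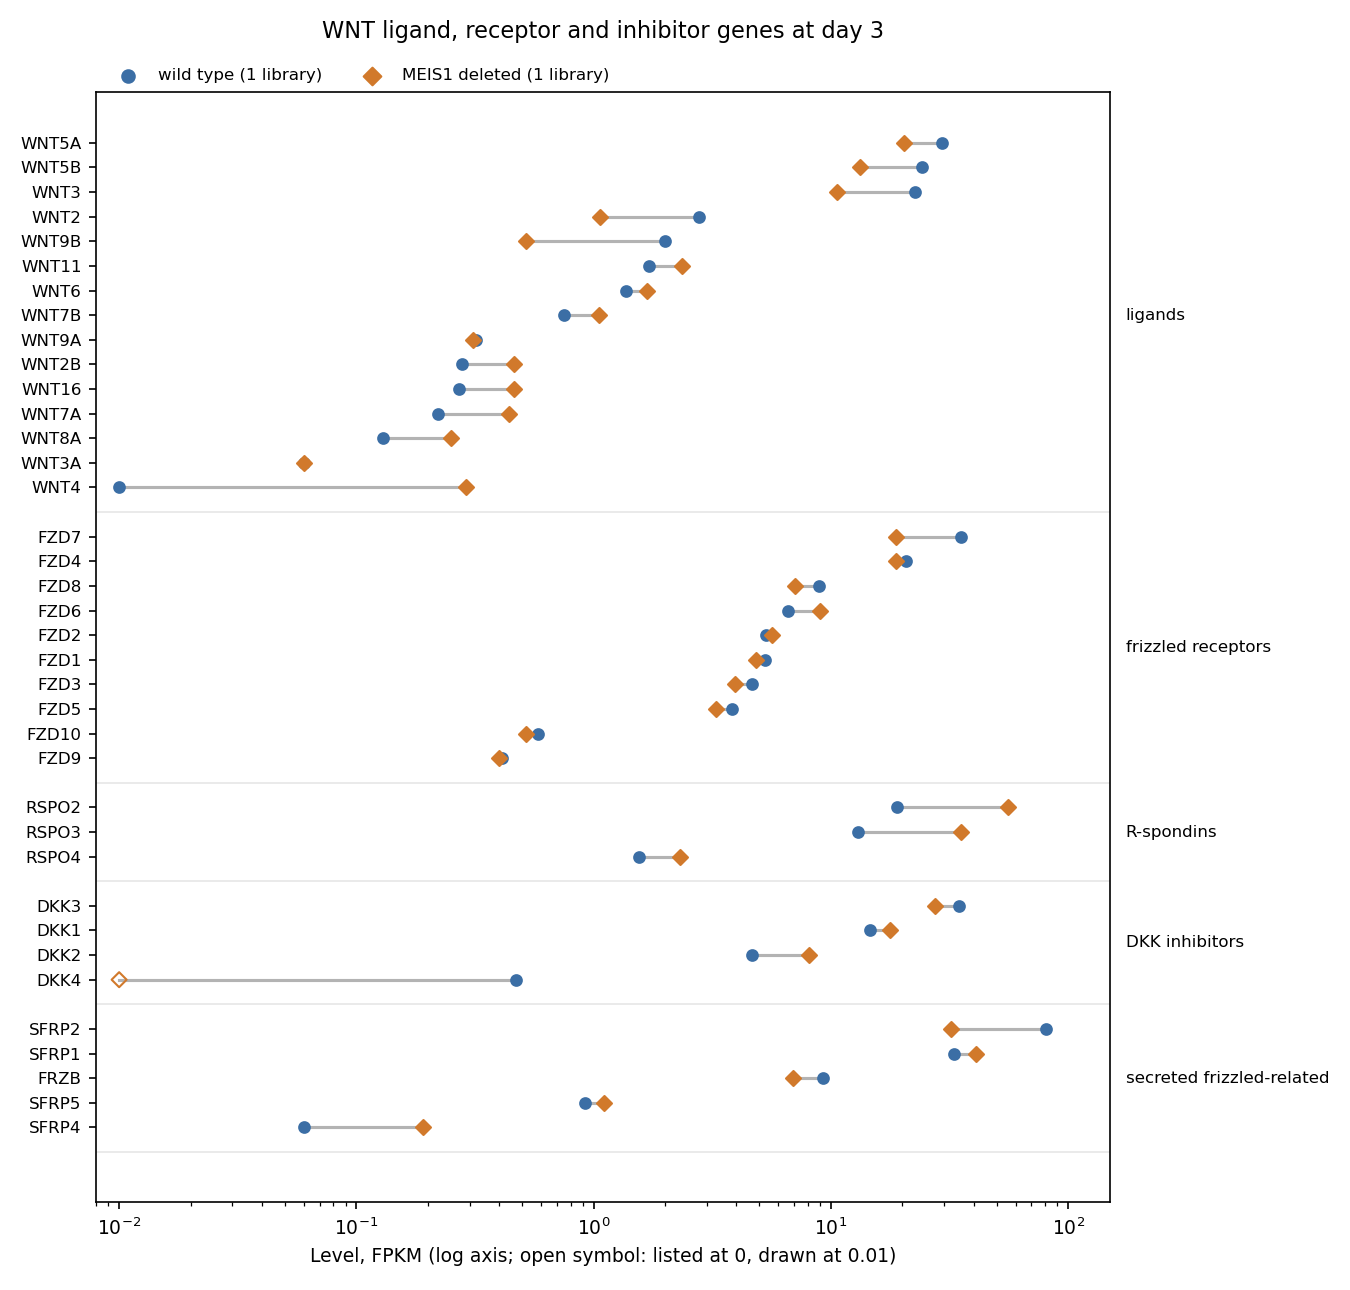
Level in FPKM on a log axis of each of the 37 genes listed in at least 1 table, with circles for the wild-type library and diamonds for the MEIS1-/- labelled library (1 library each); an open symbol is a gene listed at 0 and drawn at 0.01. In each class a few genes carry most of the level, such as WNT5A, WNT5B and WNT3 among the ligands and SFRP2 and SFRP1 among the secreted frizzled-related genes.

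Among the receptors, FZD7 was lower and FZD6 higher, and the other 7 frizzleds compared had intervals that included 1. FZD7, a receptor known from human pluripotent stem cells, had 711 counts (35.4 FPKM) in wild type and 387 counts (18.9 FPKM) in the MEIS1-/- labelled library. It was 1.85-fold lower (1.64 to 2.11), and its share of the summed frizzled level was 38.5% and 26.1%. FZD4, which binds WNTs and the ligand norrin and is known for its role in blood vessels, had 807 counts (20.8 FPKM) and 743 counts (18.8 FPKM), a ratio of 0.911 (0.824 to 1.01). FZD7 and FZD4 were thus at similar levels in the MEIS1-/- labelled library, whereas FZD7 was the more abundant in wild type. FZD6, which acts mostly in planar polarity, had 130 counts (6.57 FPKM) and 181 counts (8.96 FPKM), 1.37-fold higher (1.09 to 1.74).

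For the remaining frizzleds no difference was detectable at this depth. FZD8 had 149 and 119 counts (ratio 0.792, 0.616 to 1.01) and FZD3 337 and 292 (0.858, 0.731 to 1.01). FZD5 had 132 and 116 counts (0.871, 0.672 to 1.12), FZD1 120 and 112 (0.924, 0.708 to 1.21) and FZD2 106 and 115 (1.07, 0.817 to 1.41). FZD10 had 10 and 9 counts and FZD9 5 in each library. The expected counts of 7 frizzleds, FZD7 and FZD4 among them, were not whole within 0.005, and neither were those of WNT4 and WNT7B. In expected counts a value that is not whole holds reads divided among genes, so single frizzled ratios carry an uncertainty that the intervals leave out.

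The largest difference in the higher direction was in the R-spondins. RSPO2 had 312 counts (19.0 FPKM) in wild type and 935 counts (56.0 FPKM) in the MEIS1-/- labelled library, 2.96-fold higher (2.61 to 3.38). RSPO3, known for its role in blood vessel development, had 146 counts (13.0 FPKM) and 405 counts (35.4 FPKM), 2.73-fold higher (2.27 to 3.34). Ordered by FPKM among all gene numbers, RSPO2 was at place 3953 in wild type and 1150 in the MEIS1-/- labelled library, and RSPO3 at 5572 and 1983. Their shares of the summed R-spondin level changed little, at 56.6% and 59.7% for RSPO2 and 38.8% and 37.8% for RSPO3. RSPO4 had 22 and 31 counts (ratio 1.38, 0.782 to 2.53) and RSPO1 was listed in neither table. The higher class sum therefore came from RSPO2 and RSPO3.

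The receptors and ubiquitin ligases on which R-spondins act did not show the same direction. LGR5, an R-spondin receptor, had 564 counts (23.3 FPKM) in wild type and 307 counts (12.5 FPKM) in the MEIS1-/- labelled library, a ratio of 0.540 (0.467 to 0.620). LGR4, the most abundant of the receptors, had 1001 and 1017 counts, and LGR6 had 4 and 2. RNF43 and ZNRF3, the ligases that remove frizzleds, had ratios of 0.948 (0.725 to 1.24) and 0.883 (0.711 to 1.09). Of 4 genes compared in this list, LGR5 was lower and the interval of 3 contained 1 (median log2 ratio -0.13). Over all genes that reached 50 counts in either library, the interval excluded 1 for 34.1%.

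Among the secreted frizzled-related genes, SFRP2 and FRZB were lower and SFRP1 was higher. SFRP2, which binds WNTs outside the cell, had 836 counts (80.5 FPKM) in wild type and 338 counts (32.0 FPKM) in the MEIS1-/- labelled library. It was 2.49-fold lower (2.20 to 2.84), and among all gene numbers ordered by FPKM it was at place 756 and 2238. SFRP1 had 777 counts (33.15 FPKM) and 974 counts (40.8 FPKM), 1.24-fold higher (1.13 to 1.37). SFRP2 made up 65.0% of the class in wild type and 39.5% in the MEIS1-/- labelled library, whereas SFRP1 made up 26.7% and 50.4%. SFRP2 was thus the most abundant of these genes in wild type and SFRP1 in the MEIS1-/- labelled library. FRZB, also called SFRP3, had 134 and 102 counts, with a ratio of 0.755 (0.576 to 0.982). SFRP5 had 9 and 11 counts and SFRP4 1 and 3.

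The DKK class had nearly equal sums, with DKK2 higher and DKK3 lower. DKK2, which can act for or against the canonical branch, had 89 counts (4.66 FPKM) in wild type and 158 counts (8.12 FPKM) in the MEIS1-/- labelled library, 1.75-fold higher (1.35 to 2.30). DKK3, a divergent relative with little known effect on WNT co-receptors, had 470 counts (34.65 FPKM) and 379 counts (27.5 FPKM), 1.25-fold lower (1.09 to 1.44). DKK1, the classical co-receptor inhibitor and itself a WNT target, had 137 counts (14.6 FPKM) and 169 counts (17.7 FPKM), and its interval included 1 (ratio 1.22, 0.969 to 1.54). DKK4 had 2 counts in wild type and was not listed in the other table.

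The gene length listed in the tables can differ between libraries for genes with several transcripts; if the tables follow the layout of RSEM, it is a mean weighted by transcript abundance. WNT5A was listed at 6032 bases in wild type and 5754 in the MEIS1-/- labelled library, RSPO4 at 2725 and 2539, and WNT2 at 2907 and 2843. Of the 9 WNT genes with several transcripts, 5 had different lengths, and the other 2, FZD6 and DKK3, differed by under 1%. Among 6351 compared genes with several transcripts, 80.0% had different lengths and 13.7% differed by more than 4%. The shifts of WNT5A and RSPO4 are thus of a size seen in many genes, and that of RSPO4 rests on few reads.

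Other genes of the pathway, from 7 lists, put these differences in context. Over all genes compared, 15.4% were higher and 14.7% lower. Where either library reached 50 counts, the interval excluded 1 for 34.1% of all genes. A list near these shares is not set apart by its number of higher or lower genes. Of the co-receptors and alternative receptors, 4 of 7 compared were lower and 0 higher, with a median log2 ratio of -0.21. ROR2, a receptor for WNT5A, had 199 counts (9.29 FPKM) in wild type and 88 counts (4.03 FPKM) in the MEIS1-/- labelled library, 2.27-fold lower (1.77 to 2.97). It was the only gene of its list past 2-fold. PTK7 and RYK had ratios of 0.794 (0.731 to 0.862) and 0.853 (0.763 to 0.952). Of the genes for WNT secretion and ligand modification, 2 of 4 were lower (median -0.071). NOTUM, an extracellular enzyme that strips the lipid from WNTs, had 92 and 54 counts (0.585, 0.407 to 0.822). WLS, the carrier that takes WNTs to the surface, had 1388 and 1235 counts (0.881, 0.815 to 0.951), and TRABD2B, a membrane protease that inactivates WNTs, had 140 and 149 (1.05, 0.831 to 1.34).

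The inhibitors outside the DKK and SFRP families held the farthest ratio in each direction among the compared genes of the 7 lists. SOST, which encodes sclerostin, a co-receptor inhibitor known from bone, had 41 counts (3.40 FPKM) in wild type and 149 counts (12.1 FPKM) in the MEIS1-/- labelled library, 3.53-fold higher (2.53 to 5.21). CER1, which binds BMP and NODAL, had 136 and 31 counts, a ratio of 0.231 (0.148 to 0.335). TPBG, a membrane protein that dampens canonical signalling, had 239 and 150 counts (0.623, 0.503 to 0.765). Of 6 genes compared here, SOST was higher, 2 were lower, and the interval of 3 contained 1 (median log2 ratio -0.34), and WIF1 was listed in neither table.

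The planar polarity list was split, with 3 of 9 higher, 3 lower and 3 whose interval included 1 (median log2 ratio 0.13). VANGL2 and VANGL1, core membrane proteins of polarity, had ratios of 0.596 (0.546 to 0.650) and 0.663 (0.577 to 0.759), and DAAM2 one of 1.86 (1.41 to 2.48). The cytoplasmic and nuclear core had a median log2 ratio of -0.057, 2 of 17 higher, 5 lower and 10 whose interval included 1. For comparison, the interval excluded 1 for 34.1% of all genes that reached 50 counts in either library. CTNNB1, which encodes beta-catenin, had 2407 and 2530 counts. The nuclear partners differed among themselves, since TCF7 had a ratio of 0.650 (0.520 to 0.807), BCL9 0.725 (0.645 to 0.813) and LEF1 1.27 (1.15 to 1.42). No gene of the polarity or core lists was 2-fold apart with an interval that excluded 1.

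Feedback and target genes went both ways, with 4 of 10 higher, 3 lower and 3 whose interval included 1 (median log2 ratio 0.36), and MSGN1 was listed in neither table. The median rests in part on genes with few counts, NKD2 (8 and 10) and CDX1 (7 and 16), whose intervals included 1. AXIN2, the general feedback inhibitor of the canonical branch, had 305 and 262 counts (13.8 and 11.6 FPKM), a log2 ratio of -0.23. As a ratio this was 0.851, and its interval only just included 1 (0.718 to 1.01). TBXT and SP5 were at least 2-fold lower, with 125 and 47 counts and with 177 and 82. NKD1, the remaining lower gene, had 574 and 366 counts (0.632, 0.552 to 0.721). CCND1, a cell cycle gene with many inputs, had 2893 and 5248 counts, a ratio of 1.80 (1.72 to 1.88). The other higher genes were MYC with 362 and 500 counts (1.37, 1.19 to 1.57), CDX2 with 120 and 169 (1.39, 1.10 to 1.78) and TNFRSF19 with 248 and 341 (1.36, 1.15 to 1.61). TBXT also counts among the primitive streak markers given above.

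**Figure D4:**
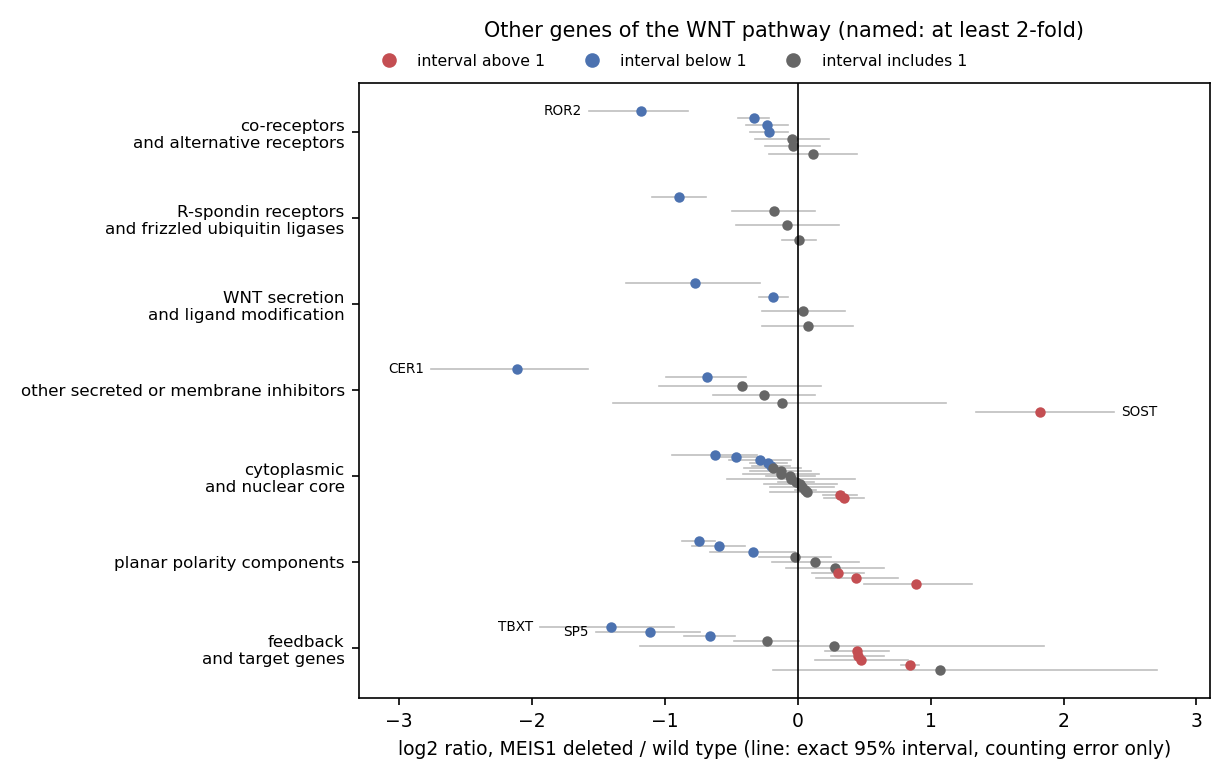
Log2 ratio of the MEIS1-/- labelled library over wild type for the compared genes of 7 other lists of the WNT pathway, as points with exact 95% counting intervals as lines; red points have an interval above a ratio of 1, blue points one below it and grey points one that includes it. SOST lies farthest to the right and CER1 farthest to the left, and the cytoplasmic and nuclear core has no gene past 2-fold.

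Some genes share their position with other genes, and whether they also share reads is not known. By the RefSeq gene table, another gene overlaps 19 of the 42 genes, 14 of them compared, including WNT2, WNT3, WNT5A, WNT9B, RSPO2 and RSPO3. The same gene, LRRC37A2, overlaps both WNT3 and WNT9B. SFRP2 and FZD7 overlap none. The expected counts of the overlapped genes named here were whole in both libraries, whereas that of FZD7 in wild type was not. Reads given whole to 1 of the overlapping genes would leave whole counts too. Whether counting used the strand was not given, so reads of overlapping genes may not have been told apart.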

How the data were processed

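RNA was sequenced from 2 samples, 1 per genotype, with libraries made from 2 µg of total RNA with a TruSeq kit, per the labels' protocols. The authors deposited expected counts, estimated read counts per gene that need not be whole, and FPKM, scaled for gene length and depth. The length column is in bases, per the file headers. The submitters' processing notes name BWA, Bowtie, RSEM and hg19, and the design text also names TopHat and Cufflinks; the steps behind each column are not given in the sources used here. A gene absent from a table was taken as 0.

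Expected counts were rounded and scaled by effective library sizes, computed with the TMM method of edgeR 4.0.16 (R 4.3.3). The ratio of these sizes was 1.01. Log2 ratios used a pseudocount of 1, and those from FPKM a pseudocount of 1 FPKM. Folds are these ratios as linear values, whereas ratios of class sums used no pseudocount. Exact Clopper-Pearson 95% intervals came from the counts without pseudocount, conditional on their sum. Genes with at least 10 counts in 1 library were compared, higher or lower means an interval that excludes 1, and a count of 0 allows up to 3 counts. Intervals and this limit cover counting error only. PCR duplicates do not count separate molecules, and where they were counted, the intervals are too narrow and the limit too low. No model was fitted. The calculation was tested on simulated counts drawn with counting error only. This checks the arithmetic and says nothing of variation between cultures or libraries.

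All 42 gene symbols matched a gene number in the RefSeq gene table (GRCh38.p14), which gave names, chromosomes and neighbours, and promoter sequences are from RefSeq of the same build. Every gene of the 5 classes is given. From each pathway list, up to 3 genes with at least 50 counts and the largest absolute log2 ratios were named. LGR4, LGR6, CTNNB1, AXIN2, NKD1, NKD2, CDX1, CDX2, MYC and TNFRSF19 were added after their values were seen. Members and lists were chosen with earlier results of these data known. Alternatives were DESeq2 1.42.0 size factors, total counts, other minimum counts, pseudocounts and folds, and FPKM.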

Additional observations from a re-analysis of the deposited data

How the results depend on the processing

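Scaling by DESeq2 size factors or by total counts, and pseudocounts of 0.5 or 5, left the same 2 genes at least 2-fold higher (RSPO2 and RSPO3) and the same 4 lower. Letting in genes of 1 count or more added WNT4 to the higher ones, on 0 and 6 rounded counts. With a minimum of 50 counts, 2 genes were lower, SFRP2 and WNT3, because WNT2 and WNT9B were no longer compared. From FPKM with a pseudocount of 1, which weighs more on low genes, 2 were lower, again without WNT2 and WNT9B. At 1.5-fold, 7 were lower, with FZD7, WNT5A and WNT5B added, and DKK2 joined the higher ones. At 4-fold, 0 were higher and 0 lower. All 135 single gene values under the 5 alternatives of scaling, pseudocount and unit stayed within the counting interval of the gene and kept their sign. These alternatives start from the same reads and scale libraries of nearly equal size, so small moves were largely fixed in advance. They are no independent check. The log2 ratios of the 5 class sums also moved by less than their counting error when sums were taken from counts per kilobase of listed length. That unit is built like FPKM apart from the scaling for depth, so close values were fixed in advance and this is no independent check. With 1 library per genotype, no replicate error could be estimated, and no library could be left out. Genes under 10 counts could not be compared at this depth.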
